A study of Mus musculus with 5 samples.

Results

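*Nrg1*, *Hbegf*, *Egfr*, *Erbb2*, *Erbb3*, *Erbb4* and *Errfi1* encode ligands, receptors and an inhibitor of the ErbB pathway, and were followed through 5 Tag-seq libraries of the E10.5 mouse heart. The 7 genes were taken by name, and are among 13486 genes with a tag in at least 1 library. Tag-seq counts short cDNA tags: cDNA made on oligo(dT) beads is cut by NlaIII at CATG, and the 17 bases next to the site are read. The libraries came from the atrioventricular canal (AVC), the outflow tract (OFT), the atria and the ventricles of wild-type C57BL/6 embryos, and from the AVC of *Twist1* knockout embryos (the *Twist1* null AVC) of the ICR strain. All embryos were at E10.5, Theiler stage 17. Each library was made from dissected tissue pooled from at least 3 litters, and there was 1 library per group. No value therefore has a replicate error. Strain and genotype differed together in the null comparison, so their effects cannot be told apart. Each library is a mixture of cell types, in which fewer cells of a type and less RNA per cell cannot be told apart.

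ErbB receptors are receptor tyrosine kinases that signal as dimers after a ligand of the EGF family binds. Neuregulin-1 (*Nrg1*) binds ERBB3 and ERBB4, HB-EGF (*Hbegf*) binds EGFR and ERBB4, and ERBB2 has no ligand of its own and acts as a partner of the others. ERBB3 has little kinase activity, and MIG6 (*Errfi1*) binds active EGFR and ERBB2 and holds their kinase activity down. In the embryonic heart, neuregulin from the endocardium acts on ERBB2 and ERBB4 in the myocardium, where it is needed for trabeculation. ERBB3 is known for its part in the formation of cushion mesenchyme, and HB-EGF and EGFR for limiting cushion size during valve remodeling. The AVC and the OFT are the regions where cushions form, and the atria and the ventricles (the chambers) served as the tissue to compare them with.

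The tags that carried the results are given here as deposited, together with their NlaIII site, which is in capitals. In all, 30 tag types matched the 7 genes in sense, 27 of them in a 3′ UTR. The first 3 tags are those of *Nrg1*, the next 2 those of *Erbb2*, and the last 4 are the most read tags of *Erbb3*, *Erbb4*, *Egfr* and *Errfi1*.
Nrg1 s1: CATGgagtactgataaactaa
Nrg1 s2: CATGaaacactatgaagaaat
Nrg1 s3: CATGccctctgtggcagtcag
Erbb2 s1: CATGtgacttgttttccttgc
Erbb2 s2: CATGacatccagggcagccgg
Erbb3 s1: CATGtgtgagcttccagactc
Erbb4 s1: CATGaatctgtcagaaatata
Egfr s1: CATGttgattgtacattaagt
Errfi1 s1: CATGctttagaaaaatgcact

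In GRCm38 coordinates, Nrg1 s1 lies at chr8:31814575-31814595 on the minus strand, in the 3′ UTR in exon 13 of 13 of the longer RefSeq transcript NM_001364421.1, 45 bases from its end. Nrg1 s2 lies at chr8:31814963-31814983, at the next site upstream in the same 3′ UTR. Nrg1 s3 lies at chr8:31818545-31818565 and is coding sequence in both transcripts: it is the last NlaIII site of the shorter transcript NM_178591.2, 810 bases from its end, and the site 15 from the end of the longer one, 4015 bases upstream of that end. An oligo(dT) library takes its tag mainly from the last site before the poly(A) tail, so the tags s1 and s3 stand for the last sites of different 3′ ends. Erbb2 s1 (chr11:98437563-98437583, plus strand) and Erbb2 s2 (chr11:98436770-98436790) are the last and the next to last site of the same 3′ UTR. Erbb3 s1 (chr10:128567891-128567911, minus strand), Erbb4 s1 (chr1:68032230-68032250, minus strand), Egfr s1 (chr11:16917882-16917902, plus strand) and Errfi1 s1 (chr4:150868753-150868773, plus strand) all lie in the 3′ UTR at the last site of their transcript. *Hbegf* lies on chromosome 18 and had 3 tag types, all in its 3′ UTR.

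The libraries held 4223810 to 12977237 tags, the null AVC being the deepest. Only tag types read at least 6 times are listed, so a tag type had to reach 0.462 TPM (tags per 1000000) in the null AVC and 1.42 TPM in the ventricles to be seen. Intervals given below are exact 95% intervals of the listed tags and cover counting error only. *Twist1*, the targeted gene, stood at 918 TPM in the AVC, at 299 TPM in the OFT, at 63.4 and 55.9 TPM in the atria and ventricles, and at 4.55 TPM in the null AVC. The 11 other cushion mesenchyme markers, led by *Vcan* and *Sox9*, summed to 1667 TPM in the AVC, to 1401 TPM in the OFT, to 106 and 107 TPM in the chambers and to 789 TPM in the null AVC. Cardiomyocyte markers (led by *Actc1* and *Myl7*) summed to between 10373 TPM in the atria and 29508 in the OFT, and endothelial and endocardial markers (led by *Npr3* and *Kdr*) to between 348 in the atria and 664 in the OFT. Erythroid markers, led by *Hbb-y* and *Hbb-bh1*, took 215445 TPM of the atria, 46741 of the ventricles and 27394 of the null AVC, against 2433 of the AVC and 3087 of the OFT. Epicardial markers (134 to 355 TPM, led by *Tcf21* and *Tbx18*) and *Ednrb* (26.0 to 167 TPM), the most abundant of the neural crest and Schwann precursor markers, were both highest in the atria. Of the tags read, 13.6% in the AVC and 15.0% in the OFT began with T after the site, against 32.1% and 22.2% in the atria and ventricles and 32.4% in the null AVC. The parts of these differences in the results below were not tested, except where values without tags that begin with T are given.

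Comparisons between libraries used the exact test of edgeR with the dispersion fixed at 0.12. Genes whose exact p before adjustment was under 0.05 are termed called. The test takes a tag type that is not listed as not read at all. An exact p given beside a bound on a ratio is thus not the p of that bound. The test compares these libraries and not the conditions. The AVC and OFT comparisons share the summed chambers. Of all genes tested against the chambers, 43.4% were called higher and 8.12% lower in the AVC, and 40.6% were called higher and 8.88% lower in the OFT. All genes had a median log2 ratio of 1.23 (AVC) and 1.07 (OFT). TMM normalization lowered these ratios by 0.91 and 0.81 and moved the share of calls that were higher from 84.2% to 60.8% for the AVC and from 82.1% to 61.0% for the OFT. Between the null and the wild-type AVC, 11.9% of genes were called higher and 12.7% lower, the median log2 ratio was -0.16, and TMM normalization raised ratios by 0.24 and the share of calls that were higher from 48.3% to 61.4%.

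Against the chambers, 5 of the 7 genes were called higher in the AVC (*Nrg1*, *Hbegf*, *Erbb2*, *Erbb3* and *Erbb4*) and 1 lower (*Egfr*). In the OFT 4 were called higher (*Nrg1*, *Hbegf*, *Erbb3* and *Erbb4*) and 0 lower. Next to the wild type, 1 gene was called lower in the null AVC (*Nrg1*) and 1 higher (*Egfr*). The median log2 ratio of the 7 genes was 2.23 in the AVC, or 2.02 with absent genes at their bound, where all genes had 0.93 by the same reckoning. In the OFT it was 1.73 either way, where all genes had 0.82, and in the null AVC it was -0.09 either way, where all genes had -0.25. With TMM normalization 3 genes were called higher and 1 lower in the AVC, and again 3 higher and 1 lower in the OFT.

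**Figure D1:**
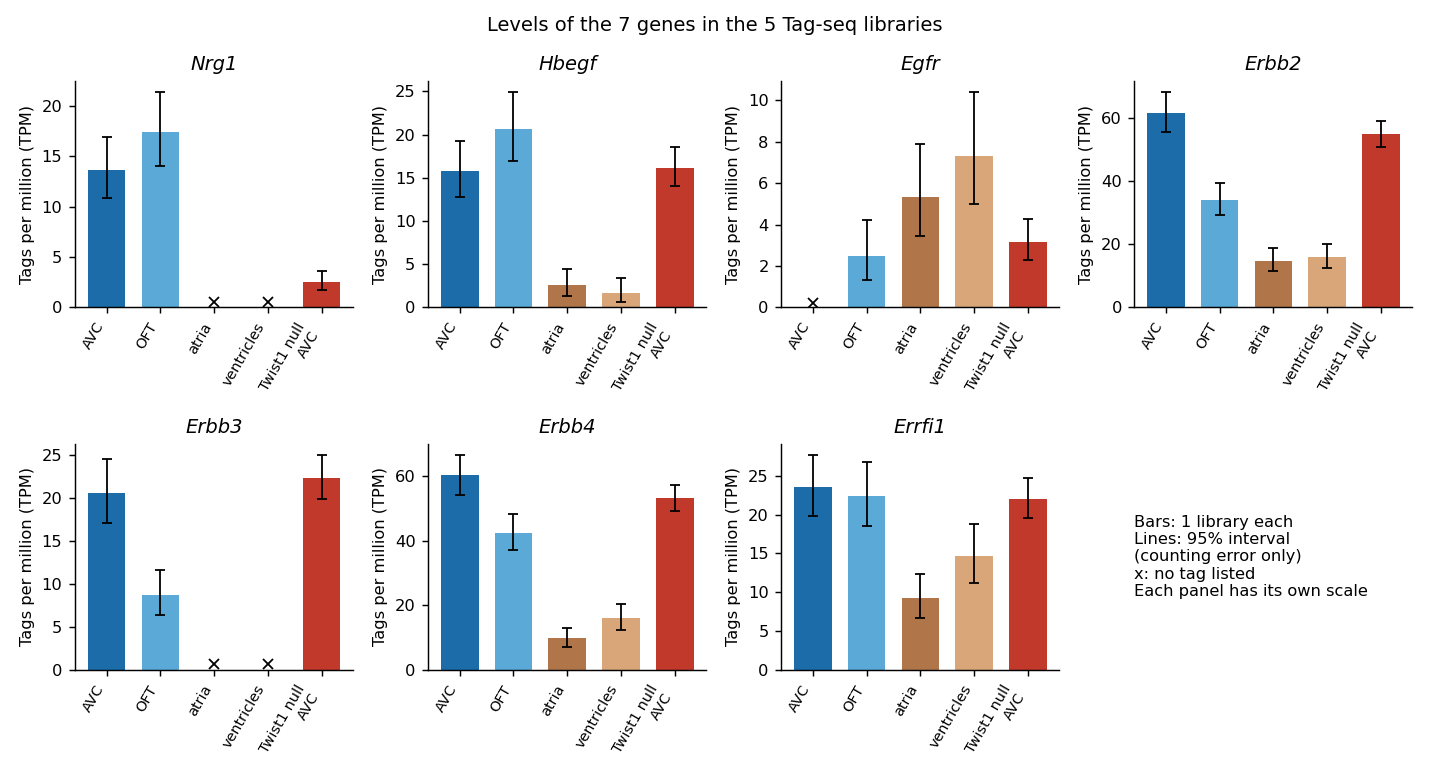
Levels of the 7 genes in TPM (y axis, starting at 0, with its own scale in each panel) in the 5 libraries (x axis). Bars are single libraries, lines are 95% intervals of counting error, and a cross marks a library with no listed tag: *Nrg1* and *Erbb3* have crosses in both chambers and *Egfr* has its cross in the wild-type AVC.

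*Nrg1* encodes neuregulin-1, the ligand of ERBB3 and ERBB4, and spans chr8:31814551-32884029 on the minus strand. It was read 83 times in the AVC, or 13.7 TPM (10.9 to 16.9), and 92 times in the OFT, or 17.5 TPM (14.1 to 21.4). No tag of it was listed in the atria or in the ventricles, and the null AVC held 33 tags, or 2.54 TPM (1.75 to 3.57). The intervals of the AVC and the OFT overlap, that of the null AVC lies below both, and both chambers stand under their listing limit. The AVC stood at least 4.05-fold above the chambers (exact p = 1.39e-08, adjusted p = 6.52e-07), and the OFT at least 7.76-fold (exact p = 4.02e-09, adjusted p = 2.48e-07). These bounds take 5 unlisted tags in each chamber library for every tag type seen on the other side. The p-values beside them do not. With 5 tags put in for each missing tag type, *Nrg1* was still called (exact p = 0.012 in the AVC and 0.000498 in the OFT). *Nrg1* was 5.37-fold lower in the null than in the wild-type AVC (log2 ratio -2.42, 95% counting interval -3.05 to -1.83, exact p = 0.00306, adjusted p = 0.0381). All of its tags begin with G, A or C, and without the tags that begin with T in any gene the log2 ratio was -2.07 (exact p = 0.0102).

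The 3 sense tag types of *Nrg1* did not move together. The tag s3, at the last site of the shorter transcript, was read 48 times in the AVC and 86 times in the OFT, and was listed in neither chamber nor the null AVC. The tag s1, at the last site of the longer transcript, was read 27 times in the AVC, 6 times in the OFT and 33 times in the null AVC. The tag s2 was read 8 times in the AVC and nowhere else. The null AVC thus kept the tag of the longer 3′ end and listed none of the shorter one. Tag s3 made up 57.8% of *Nrg1* tags in the AVC (46.5 to 68.6%) and 93.5% in the OFT (86.3 to 97.6%), and these intervals do not overlap. It was 0 of the 33 listed tags of the null AVC, where 5 unlisted tags would make 13.2%, which is below the interval of the wild-type AVC. Taken singly, s3 was at least 20.5-fold lower in the null AVC than in the wild type, while s1 was 1.75-fold lower (log2 ratio -0.81, counting interval -1.58 to -0.02). The value of s1 is near the median log2 ratio of -0.70 in this comparison over all genes' tag types that do not begin with T. That median takes tag types with at least 20 tags in each library. Between the OFT and the AVC the tags differed in opposite directions, with s3 2.07-fold higher in the OFT (log2 ratio 1.05, 0.52 to 1.59) and s1 3.90-fold lower (log2 ratio -1.96, -3.53 to -0.66). Strain and genotype cannot be told apart for single tags either, and the ICR sequence at these sites was not analysed here. Tags that differ by 1 base from an *Nrg1* tag numbered 14 in the AVC, 0 in the null AVC and 21 in the OFT.

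**Figure D2:**
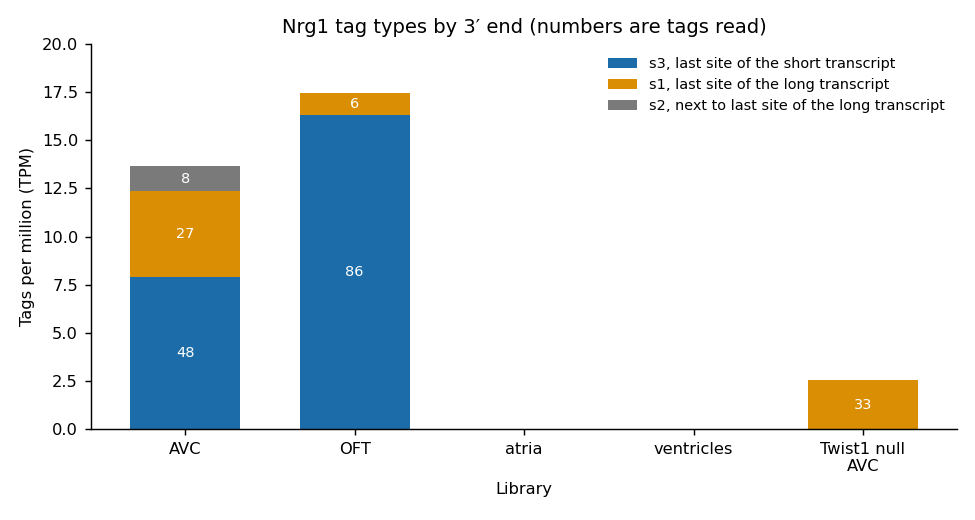
*Nrg1* tags in TPM (y axis) in each library (x axis), stacked by tag type, with the number of tags read written in each segment. The AVC holds 48 tags of the shorter 3′ end (s3) and 27 of the longer (s1), the OFT holds 86 and 6, the null AVC holds 33 of the longer only, and the chambers hold none.

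*Hbegf*, the gene of HB-EGF (chr18:36504927-36515805, minus strand), was at 15.8 TPM in the AVC (12.8 to 19.3, 96 tags), 20.7 TPM in the OFT (17.0 to 25.0, 109 tags) and 16.2 TPM in the null AVC (14.1 to 18.5, 210 tags). The atria had 2.57 TPM (1.33 to 4.49, 12 tags) and the ventricles 1.66 TPM (0.666 to 3.42, 7 tags). The AVC, OFT and null AVC overlap each other in their intervals and lie above both chambers, which overlap each other too. The gene was 7.39-fold higher in the AVC than in the chambers (log2 ratio 2.88, exact p = 0.000614, adjusted p = 0.00313) and 9.68-fold higher in the OFT (log2 ratio 3.27, exact p = 0.000121, adjusted p = 0.000879). With TMM normalization the log2 ratios were 1.97 and 2.45, both still called. With 5 tags put in for each missing tag type they were 1.845 and 2.233, also called (exact p = 0.0203 and 0.00561). The null AVC had 1.02-fold the level of the wild type (log2 ratio 0.03, -0.32 to 0.40, exact p = 0.967). The *Hbegf* tag nearest the 3′ end was the only one listed in the chambers, and accounts for their 12 and 7 tags. By that tag alone the AVC stood 4.31-fold and the OFT 5.51-fold above the chambers. The tag 1363 bases from the end was read 14 times in the AVC and 6 times in the OFT and was not listed in the null AVC.

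Of the 9 other ErbB ligands looked for, 7 (*Areg*, *Ereg*, *Btc*, *Epgn*, *Nrg2*, *Nrg3* and *Nrg4*) had no listed tag of their own in any library. *Egf*, the founding ligand of EGFR, was listed in the AVC (2.63 TPM) and in the null AVC (1.23 TPM) and in no other library. It was called higher in the AVC than in the chambers, by at least 2.34-fold (exact p = 0.000635). *Tgfa*, another EGFR ligand, had 3.46 TPM in the AVC, 2.85 TPM in the OFT and 1.66 TPM in the ventricles, and was not listed in the atria or the null AVC. It was called higher in the AVC than in the chambers, by 4.39-fold (exact p = 0.0446, adjusted p = 0.088), but not with TMM normalization (exact p = 0.231). *Tgfa* was also called lower in the null AVC than in the wild type, by at least 8.97-fold (exact p = 6.11e-05). All of these are low levels, near the listing limits.

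*Erbb2* encodes the receptor without a ligand (chr11:98412470-98437716, plus strand). It was at 61.6 TPM in the AVC (55.5 to 68.1, 374 tags), 54.7 TPM in the null AVC (50.8 to 58.9, 710 tags) and 34.0 TPM in the OFT (29.2 to 39.3, 179 tags). The ventricles had 15.9 TPM (12.3 to 20.1, 67 tags) and the atria 14.8 TPM (11.5 to 18.7, 69 tags). In this order only the OFT stands apart from both of its neighbours: the AVC and the null AVC overlap, and so do the chambers. The AVC was 4.02-fold above the chambers (log2 ratio 2.01, exact p = 0.00816, adjusted p = 0.0242), and the OFT was 2.22-fold above them without passing the test (log2 ratio 1.15, exact p = 0.124). With TMM normalization the AVC ratio was 1.10 on the log2 scale and no longer called (exact p = 0.139). The null AVC stood at 0.889-fold of the wild type (log2 ratio -0.17, -0.35 to 0.01, exact p = 0.817).

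The tags of *Erbb2* gave different answers in the null comparison. Tag s1, which begins with T, went from 90 tags in the wild-type AVC to 345 in the null AVC, a log2 ratio of 0.84 (0.51 to 1.19). Tag s2, which begins with A, went from 284 to 357 tags, a log2 ratio of -0.76 (-0.99 to -0.53). The counting intervals of these tags of 1 gene do not overlap. Over all genes the same split was seen: the median log2 ratio of tag types in the null comparison was 0.60 for those that begin with T and -0.70 for the others. These medians, and those within genes below, take only tag types with at least 20 tags on each side of the comparison. Within the 1440 genes that had both kinds, the T tags stood above the others by a median of 1.17, and did so in 81.2% of genes. *Erbb3* went the other way, with -0.11 (-0.47 to 0.26) for its T tag and 0.74 (0.11 to 1.41) for its other tag, and *Hbegf* had 0.03 (-0.44 to 0.51) for its T tag and 0.66 (0.02 to 1.35) for the tag that begins with C. Against the chambers the T tags stood lower within genes, by a median of 0.55 in the AVC (734 genes) and 0.56 in the OFT (687 genes). The tags of *Erbb2* also differed in the OFT against the AVC. Tag s1 had a log2 ratio of -2.20 there (-3.04 to -1.44), and tag s2 -0.67 (-0.96 to -0.38). In that comparison the T tags stood above the others within genes by a median of 0.08 (1229 genes).

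**Figure D3:**
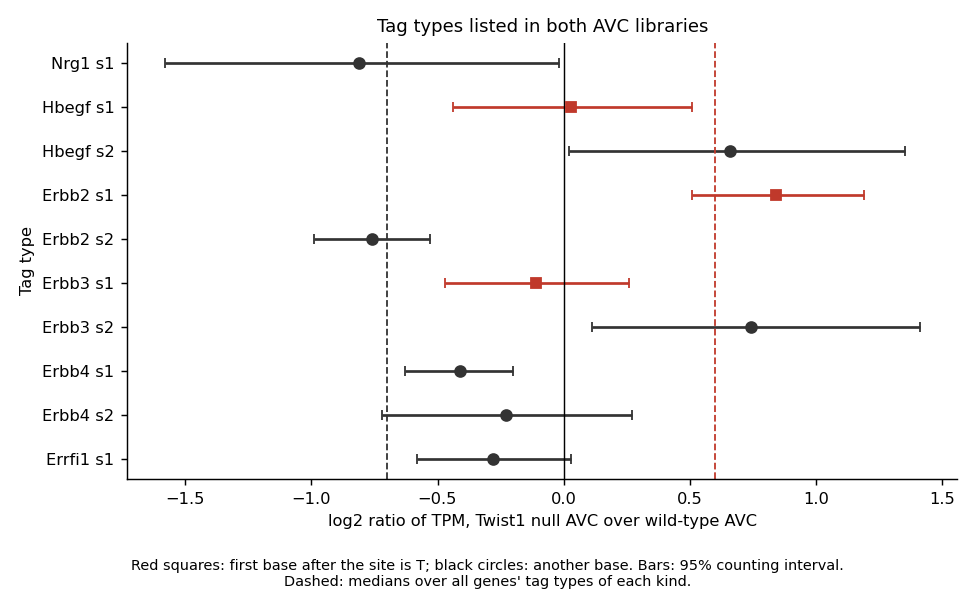
Log2 ratios of TPM, null over wild-type AVC (x axis), for each tag type of the 7 genes that was listed in both libraries (y axis), with 95% intervals of counting error. Red squares begin with T and black circles with another base. Dashed lines are the medians of all genes' tag types of each kind with at least 20 tags in each library, 0.60 and -0.70. Erbb2 s1 and Erbb2 s2 fall on opposite sides of 0.

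*Erbb3* encodes the neuregulin receptor with little kinase activity (chr10:128567523-128589652, minus strand). It was at 22.3 TPM in the null AVC (19.8 to 25.1, 290 tags), 20.6 TPM in the AVC (17.1 to 24.5, 125 tags) and 8.73 TPM in the OFT (6.39 to 11.6, 46 tags), and no tag was listed in either chamber. The AVC and the null AVC overlap, the OFT lies below both, and the chambers lie under their listing limits. Its AVC level was at least 9.15-fold that of the chambers (exact p = 6.42e-10, adjusted p = 5.82e-08), and its OFT level at least 3.88-fold (exact p = 6.23e-07, adjusted p = 1.2e-05). With 5 tags put in for each missing tag type, *Erbb3* was still called (exact p = 0.000154 in the AVC and 0.0222 in the OFT). Both of its tag types were listed in the AVC, the OFT and the null AVC, the last site with 98, 38 and 194 tags and the site 1353 bases from the end with 27, 8 and 96. The null comparison gave a log2 ratio of 0.12 (-0.19 to 0.43, exact p = 0.885).

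*Erbb4* encodes the neuregulin receptor with an active kinase (chr1:68032186-69108059, minus strand). Its levels were 60.2 TPM in the AVC (54.2 to 66.7, 366 tags), 53.2 TPM in the null AVC (49.4 to 57.4, 691 tags) and 42.5 TPM in the OFT (37.1 to 48.5, 224 tags). The ventricles had 16.1 TPM (12.5 to 20.4, 68 tags) and the atria 9.86 TPM (7.22 to 13.1, 46 tags). Along this order the intervals of the AVC and null AVC overlap, those of the ventricles and atria overlap, and the OFT lies between without touching either pair. *Erbb4* was 4.70-fold higher in the AVC than in the chambers (log2 ratio 2.23, exact p = 0.00365, adjusted p = 0.0128). In the OFT it was 3.32-fold higher (log2 ratio 1.73, exact p = 0.0225), with an adjusted p of 0.0542 by the same exact test. With TMM normalization the log2 ratios were 1.32 and 0.92, and neither was called (exact p = 0.0769 and 0.218). Against the ventricles alone the OFT ratio was 1.40 on the log2 scale and was not called (exact p = 0.0656). The null AVC was at 0.884-fold of the wild type (log2 ratio -0.18, -0.36 to 0.01, exact p = 0.809).

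*Erbb4* was read at 11 sense tag types, from 65 to 8120 bases from the end of its transcript, and 76.4% of its tags were s1, at the last site. The null AVC listed 9 of these types, 7 of which were in no other library, whereas the AVC and the OFT listed 3 each. Of the 7, the most read was 2077 bases from the end, with 42 tags in the null AVC. The null library is also the deepest: a type read 6 times stands at 0.462 TPM there, while 0.988 TPM was needed in the AVC and 1.14 TPM in the OFT. Of the 7 types, 3 were above both of these limits in the null AVC, at 3.24, 1.70 and 1.31 TPM, and the first of them was at least 3.93-fold higher there than in the wild-type AVC. Tag s1 alone gave a log2 ratio of -0.41 (-0.63 to -0.20) between the null and the wild-type AVC, and the next site -0.23 (-0.72 to 0.27).

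*Egfr*, the receptor of EGF, TGF-alpha and HB-EGF (chr11:16752203-16918158, plus strand), had the fewest tags of the 7 genes over the 5 libraries together (110). No tag was listed in the wild-type AVC. The OFT had 2.47 TPM (1.31 to 4.22, 13 tags), the null AVC 3.16 TPM (2.27 to 4.29, 41 tags), the atria 5.36 TPM (3.47 to 7.91, 25 tags) and the ventricles 7.34 TPM (4.99 to 10.4, 31 tags). Neighbours in this order overlap, and the ventricles lie above the null AVC and the OFT. The AVC was called lower than the chambers, by at least 1.91-fold (exact p = 2.92e-06, adjusted p = 4.45e-05), and the null AVC higher than the wild-type AVC, by at least 1.92-fold (exact p = 0.000385, adjusted p = 0.0133). When 5 tags were put in for each missing tag type, neither passed the test (exact p = 0.269 and 0.334). The OFT was at 0.392-fold of the chambers (log2 ratio -1.35, -2.35 to -0.46, exact p = 0.124), and it was called there with TMM normalization (log2 ratio -2.15, exact p = 0.0151).

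The tags of *Egfr* were scattered over 5 sites of a long 3′ UTR, from 277 to 5771 bases from the end, and no site was listed in every library. The last site, s1, was read 6 times in the OFT, 18 times in the ventricles and 21 times in the null AVC. The site 5558 bases from the end was read 8 times in the atria and 13 times in the ventricles. Both tag types of the null AVC begin with T, so without such tags the null comparison had no value for *Egfr*, while the AVC was still called lower than the chambers (exact p = 7.51e-05).

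*Errfi1*, the gene of the inhibitor MIG6 (chr4:150853919-150868892, plus strand), was at 23.5 TPM in the AVC (19.8 to 27.7, 143 tags), 22.4 TPM in the OFT (18.5 to 26.8, 118 tags) and 22.0 TPM in the null AVC (19.6 to 24.7, 286 tags). The ventricles had 14.7 TPM (11.3 to 18.8, 62 tags) and the atria 9.21 TPM (6.67 to 12.4, 43 tags). The first 3 overlap each other, the chambers overlap each other, and the OFT also overlaps the ventricles. Its ratios to the chambers were 1.99-fold in the AVC (log2 ratio 0.99, 0.62 to 1.37, exact p = 0.191) and 1.90-fold in the OFT (log2 ratio 0.92, 0.53 to 1.32, exact p = 0.228). Neither was called. Both log2 ratios were below the median over all genes (1.23 and 1.07) and above that median with absent genes at their bound (0.93 and 0.82). Between the null and the wild-type AVC the log2 ratio was -0.09 (-0.39 to 0.20, exact p = 0.907).

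**Figure D4:**
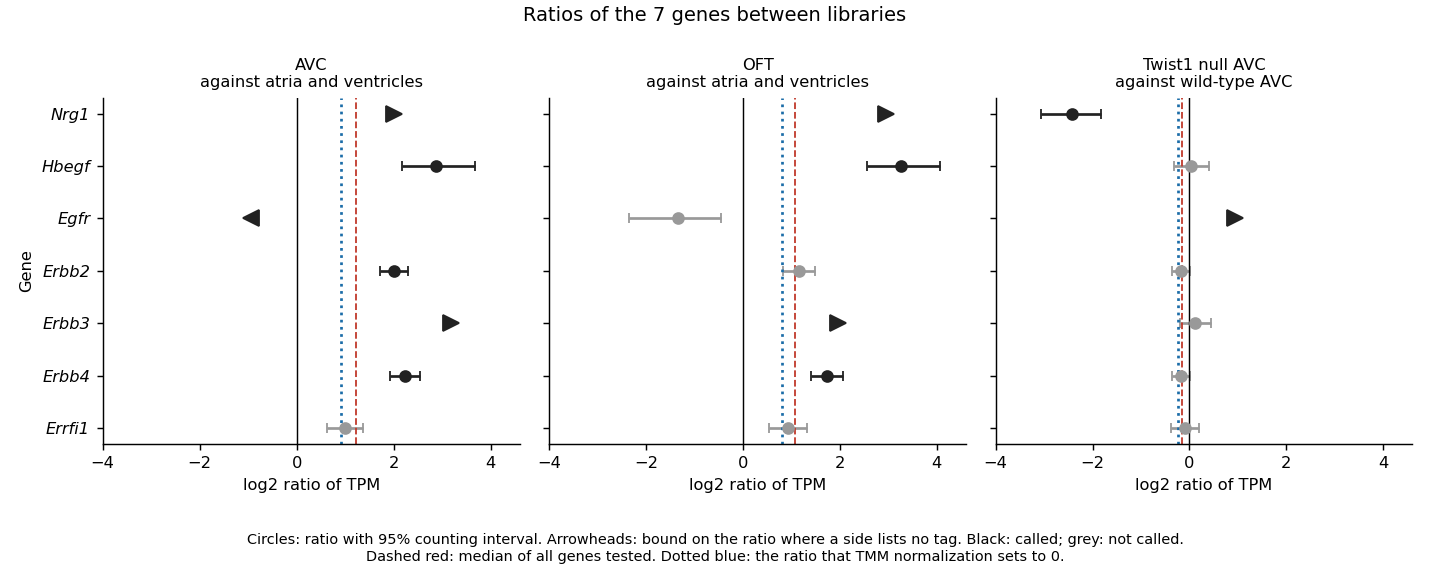
Log2 ratios of TPM (x axis) for the 7 genes (y axis) in the 3 comparisons, with circles for measured ratios, lines for 95% intervals of counting error and arrowheads for bounds where a side lists no tag. Called genes are black and the others grey. The dashed line is the median of all genes (1.23, 1.07 and -0.16 from left to right), and the dotted line is the ratio that TMM normalization sets to 0.

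Between the wild-type cushion regions the 7 genes were closer. In the OFT against the AVC, where 5.22% of all genes were called higher and 7.35% lower, *Egfr* was the 1 gene called, higher by at least 1.5-fold (exact p = 0.00278, adjusted p = 0.07). *Erbb3* was 2.36-fold lower in the OFT (log2 ratio -1.23, -1.76 to -0.74, exact p = 0.119) and *Erbb2* 1.81-fold lower (log2 ratio -0.86, -1.12 to -0.60, exact p = 0.246), and neither passed the test. With tags of the last site only, *Erbb2* was called lower in the OFT (log2 ratio -2.19, exact p = 0.0083). *Nrg1*, *Hbegf*, *Erbb4* and *Errfi1* had log2 ratios from -0.50 to 0.39 (exact p from 0.497 to 0.94). Between the ventricles and the atria, where 11.1% of genes were called higher and 9.03% lower, 0 of the 5 genes listed there were called by the edgeR test at an unadjusted p under 0.05. None were called with TMM normalization. The log2 ratios, ventricles over atria, were 0.71 for *Erbb4*, 0.67 for *Errfi1*, 0.45 for *Egfr*, 0.10 for *Erbb2* and -0.63 for *Hbegf* (exact p from 0.39 to 0.933).

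The genes that process the ligands were followed next. Of 11 ligand-shedding proteases, 5 of 11 tested were called higher in the AVC than in the chambers, 4 of 10 in the OFT, and none lower in either. The shares of all genes called higher were near these, at 43.4% (AVC) and 40.6% (OFT), and those called lower were 8.12% and 8.88%. With TMM normalization 3 and 4 proteases were called higher. *Adam9*, a metalloprotease that can shed HB-EGF, had 90.2 TPM in the AVC and 75.9 TPM in the OFT, against 4.93 and 4.50 TPM in the atria and ventricles. Its ratio to the chambers was 19.1-fold for the AVC (exact p = 4.28e-07) and 16.1-fold for the OFT (exact p = 1.77e-06). *Adam19*, which can shed neuregulin, stood 12.2-fold above the chambers in the AVC (exact p = 0.000292) and 18.3-fold in the OFT (exact p = 1.63e-05). *Adam9* had 17.7 TPM in the null AVC, 5.09-fold less than in the wild type (exact p = 0.0021), and *Bace2*, an aspartyl protease, 3.97-fold lower (exact p = 0.0129). *Bace1*, a protease that cleaves neuregulin, was 3.16-fold higher there (exact p = 0.0371). These were the 3 of 11 proteases called in the null AVC, where 11.9% of all genes were called higher and 12.7% lower.

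Adaptors and kinases bind next to the receptors and pass their signal on. Of 26 tested, 17 were called higher in the AVC than in the chambers and none was called lower, and of 25 tested 14 were called higher in the OFT and none lower. TMM normalization left 13 higher and 1 lower in the AVC, and in the OFT 12 higher and none lower. With absent genes at their bound the median log2 ratio was 1.31 for the AVC comparison and 1.32 for that of the OFT, next to 0.93 and 0.82 for all genes. Among all genes tested, 43.4% (AVC) and 40.6% (OFT) were called higher, and 8.12% and 8.88% lower. *Gab1*, a docking protein of the EGFR pathway, had 100 TPM in the AVC and 154 TPM in the OFT, against 4.93 and 2.37 TPM in the atria and ventricles, or 27.0-fold (exact p = 4.19e-08) and 41.5-fold (exact p = 1.5e-09). *Gab2*, its paralog, was listed in neither chamber, with a ratio of at least 4.44-fold in the AVC (exact p = 7.31e-09) and at least 6.30-fold in the OFT (exact p = 8.8e-10). Against the wild type, 3 of 26 were called lower and none higher in the null AVC, where 12.7% of all genes were called lower and 11.9% higher. The 3 included *Gab2*, 3.67-fold lower at 4.08 TPM (exact p = 0.0183), and *Pik3r2*, a regulatory subunit of PI3 kinase that was not listed there and was at least 6.41-fold lower (exact p = 0.000376). *Gab1* had 70.3 TPM there (log2 ratio to the wild type not called, exact p = 0.483).

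Of the 18 RAS, MAP kinase, AKT and STAT5 transducers, 6 were called higher and 1 lower in the AVC than in the chambers, and 7 higher and 1 lower in the OFT. TMM normalization left 2 lower in each, with 4 higher for the AVC and 3 for the OFT. Their median log2 ratios, with or without bounds, were 1.29 and 1.10, next to 0.93 and 0.82 for all genes with absent genes at their bound and to 1.23 and 1.07 without bounds. Among all genes tested, 43.4% (AVC) and 40.6% (OFT) were called higher, and 8.12% and 8.88% lower. *Stat5a*, a transcription factor that ERBB4 can activate, was listed in neither chamber, which put the AVC at least 4.10-fold above them (exact p = 2.81e-05). *Braf*, a kinase between RAS and MEK, had an OFT level 7.34-fold that of the chambers (exact p = 0.000465), and *Rps6kb1*, the S6 kinase, an AVC level 6.21-fold that of the chambers (exact p = 0.000836). *Map2k2*, which encodes MEK2, was the 1 gene called lower in both: it had 567 and 495 TPM in the atria and ventricles, against 147 in the AVC (3.63-fold lower, exact p = 0.0122) and 124 in the OFT (4.29-fold lower, exact p = 0.00507). *Akt1* was 3.75-fold higher in the null than in the wild-type AVC (279 TPM, exact p = 0.0105) and *Akt2* 3.36-fold lower (15.3 TPM, exact p = 0.0204), and the other 16 were not called. Both encode AKT kinases. In the null comparison 11.9% of all genes were called higher and 12.7% lower.

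Negative regulators remove the receptors from the membrane or act on their signal. Of 21 tested, 14 were called higher and 1 lower in the AVC than in the chambers, and of 20 tested 12 were called higher and 2 lower in the OFT. TMM normalization left 11 higher and 2 lower for the AVC, and 8 higher and 3 lower for the OFT. With absent genes at their bound their medians were 1.62 and 1.31 on the log2 scale, next to 0.93 and 0.82 for all genes. Among all genes tested, 43.4% (AVC) and 40.6% (OFT) were called higher, and 8.12% and 8.88% lower. *Rnf41*, a ubiquitin ligase that lowers ERBB3, was listed in neither chamber, with an AVC level at least 11.1-fold theirs (12.5 TPM, exact p = 2.8e-08) and an OFT level at least 6.16-fold theirs (13.9 TPM, exact p = 2.2e-08). *Ptpn1*, a tyrosine phosphatase that acts on EGFR, was 16.8-fold higher in the AVC (115 TPM, exact p = 9.27e-07) and 22.9-fold higher in the OFT (157 TPM, exact p = 8.64e-08). *Lrig1*, a membrane protein that lowers ErbB receptors, went the other way. It had 4.44 TPM in the AVC and 5.51 TPM in the OFT, against 19.9 and 72.4 TPM in the atria and ventricles. The AVC thus stood 10.1-fold below the chambers (exact p = 5.15e-05) and the OFT 8.15-fold (exact p = 0.000188). *Ptpn12*, another tyrosine phosphatase, was 3.90-fold lower in the OFT than in the chambers (25.6 TPM, exact p = 0.0093). *Lrig1* had 31.4 TPM in the null AVC and was 7.07-fold higher than in the wild type (exact p = 0.000535). *Ptpn1* was 3.06-fold lower there (37.7 TPM, exact p = 0.0296) but was not called with TMM normalization (exact p = 0.0622), and the other 19 were not called. In the null comparison 11.9% of all genes were called higher and 12.7% lower.

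Of the 15 immediate response genes, 11 had tags. Against the chambers 7 of 11 were called higher in the AVC with 1 lower, and 6 higher in the OFT with 0 lower, and TMM normalization left 4 higher and 1 lower in each. Their medians with absent genes at their bound were 1.20 and 0.89 on the log2 scale, next to 0.93 and 0.82 for all genes. Among all genes tested, 43.4% (AVC) and 40.6% (OFT) were called higher, and 8.12% and 8.88% lower. *Ier2* was 13.5-fold higher in the AVC (31.9 TPM, exact p = 1.12e-05) and 15.9-fold higher in the OFT (37.6 TPM, exact p = 4.22e-06). *Junb*, which encodes an AP-1 subunit, was listed in neither chamber and was at least 2.19-fold higher in both cushion regions (exact p = 0.000836 and 2.81e-05). *Myc* was 5.07-fold lower in the AVC than in the chambers (5.10 TPM, exact p = 0.00342). *Myc* was also 3.50-fold higher in the null than in the wild-type AVC (17.9 TPM, exact p = 0.0222). *Jun* was 2.78-fold lower there (42.8 TPM, exact p = 0.0456) but was not called with TMM normalization (exact p = 0.0918), and the other 9 were not called. In the null comparison 11.9% of all genes were called higher and 12.7% lower.

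Genes with the profile most like each of the 7 were found by the root mean square (RMS) difference of log2(TPM + 1) over the 5 libraries, after each profile was centred on its mean. *Egfr* stayed below 10 TPM in every library and was not compared. *Piezo1* (RMS difference 0.115), *Cox10* (0.138) and *Tnfrsf1a* (0.144) were nearest to *Nrg1*, out of 9084 genes with a median RMS difference of 1.48. *Piezo1*, a mechanically gated channel, had 42.8 TPM in the AVC, 61.1 TPM in the OFT and 10.6 TPM in the null AVC, against 1.71 and 1.89 TPM in the atria and ventricles. Nearest to *Hbegf* were *Efna2* (0.055), *Zbtb4* (0.061) and *St3gal5* (0.093). For *Erbb2* they were *Klhl2* (0.059), *Cep55* (0.089) and *Ing1* (0.092). *Erbb3* was followed most closely by *Tbx2* (0.031), a T-box repressor of chamber genes in the AVC, with 20.1 TPM in the AVC, 8.73 TPM in the OFT, 21.1 TPM in the null AVC and no tag in the chambers. *Npr2* (0.078) and *Gapdh* (0.243) came next. *Erbb4* was nearest to *Zfp451* (0.072), *Srrt* (0.073) and *Fubp1* (0.084), and *Errfi1* to *Cnot2* (0.039), *Gopc* (0.053) and *Flcn* (0.06). With 5 points a profile, these are descriptions.

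Antisense tags of the 7 genes, which match the opposite strand of a transcript, were left out of all levels above. They were of 15 types. *Erbb4* had 29.2 TPM of them in the null AVC (26.3 to 32.3, 379 tags), against 8.56 TPM in the AVC (6.39 to 11.2, 52 tags) and 7.97 TPM in the OFT (5.75 to 10.8, 42 tags), and neither chamber listed any. They were 35.4% of the *Erbb4* tags of both strands in the null AVC, 12.4% in the AVC and 15.8% in the OFT. For *Erbb3* there were 12.3 TPM in the null AVC (10.4 to 14.3, 159 tags), 5.60 TPM in the AVC (3.88 to 7.82, 34 tags) and 8.54 TPM in the OFT (6.23 to 11.4, 45 tags). In the OFT *Erbb3* had about as many antisense as sense tags, 45 and 46. Over all genes antisense tags were 9.58% of the null AVC library, 6.42% of the AVC, 7.06% of the OFT, 3.28% of the atria and 3.93% of the ventricles. The antisense tags of *Hbegf* were at 6.75 TPM in the AVC, 12.2 TPM in the OFT and 7.78 TPM in the null AVC, and those of the other genes stayed at or below 3.61 TPM.

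**Figure D5:**
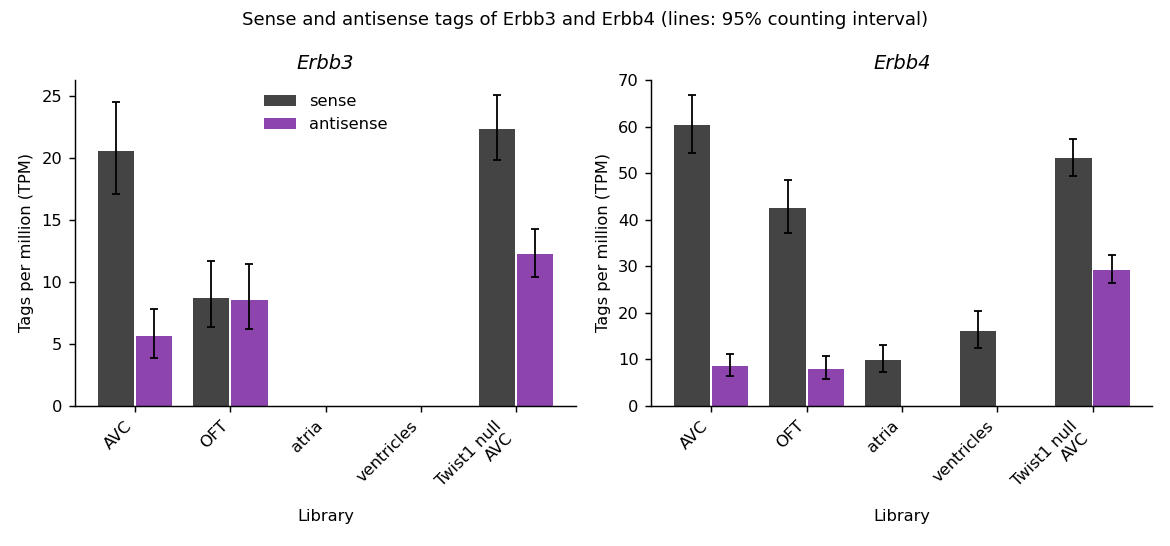
Sense and antisense tags in TPM (y axis, starting at 0) of *Erbb3* and *Erbb4* in the 5 libraries (x axis), with 95% intervals of counting error where a tag was listed. The sense levels of the AVC and null AVC overlap for both genes, while the antisense levels of the null AVC, 12.3 and 29.2 TPM, lie above those of the AVC, 5.60 and 8.56 TPM.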

How the data were processed

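Tag-seq was measured in 1 library for each of the 5 groups. The deposited counts are reads per tag type, which the authors kept when a type was read more than 5 times, without normalization. The authors' processing notes name mm9, and their step that maps tags to genes is not applied in the files. Tags were matched in sense to the NlaIII sites of 33363 RefSeq-linked GENCODE M21 transcripts (GRCm38) of 24303 genes, tags of 1 gene were kept (70.7 to 74.5% of tags) and summed, and TPM are tags per 1000000 listed tags. No coordinate was converted. Without a genome sequence, the uniqueness of tags in the genome was not checked.

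The AVC and the OFT were compared with the summed atria and ventricles, the null with the wild-type AVC, the OFT with the AVC, and the ventricles with the atria, by edgeR 4.0.16 (exact test, two-sided, R 4.3.3) with dispersion 0.12 as in the study's methods, and p-values were adjusted by Benjamini-Hochberg over all genes tested. Each test compares single libraries. With 1 library per group no quasi-likelihood or DESeq2 test could be fitted. Intervals are exact (Clopper-Pearson, scipy 1.17.1) and cover counting error only.

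The members, the pathway lists and the marker lists were chosen with earlier results of these data known. Named are all members, of each pathway list up to 2 genes called in each direction with the smallest p in each of the 3 main comparisons, *Twist1*, and the 3 nearest profiles of each member that reached 10 TPM. Alternatives changed the scaling (TMM, DESeq2 1.42.0 size factors, totals of all tags), the dispersion, the limits on tags, the tags used, the depth, the tags put in for missing tag types and which chamber was used. *Hbegf* tag sequences are not printed, and the summed level of the neural crest and Schwann precursor markers is not reported here.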

Additional observations from a re-analysis of the deposited data

Results flagged for a closer look

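Chance flags some values among many, and none of these rests on replicates. *Egfr* differed between the OFT and the AVC, which share their chamber comparison: the exact p of the OFT against the AVC was 0.00278 (adjusted p = 0.07 by the edgeR exact test), from 13 tags against none, and the bound on the ratio is 1.5-fold. Antisense tags lie outside the levels that were compared. Those of *Erbb3* reached 12.3 TPM in the *Twist1* null AVC against 5.60 TPM in the wild-type AVC, and those of *Erbb4* reached 29.2 TPM against 8.56 TPM. Of the *Erbb4* antisense tags in the null AVC, 284 of 379 were of the type at the last site, which begins with T, as 32.4% of all tags of that library do. This type had 7.24 TPM in the wild-type and 21.9 TPM in the null AVC. The other type listed in both AVC libraries begins with G and had 1.32 and 3.01 TPM. The part of the first base in these differences was not tested. The *Erbb3* antisense type begins with C.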

How the results depend on the processing

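No paired analysis was possible because each group has 1 library, and for the same reason no replicate could be left out. The 482 values of single genes under 16 settings, all planned, kept their direction except as follows. In the null against the wild-type AVC the log2 ratio changed sign to 0.068 (TMM), 0.2 (totals of all tags) and 0.843 (last site only) for *Erbb2*, to -0.11 (last site only) for *Erbb3*, to 0.06 (TMM), 0.192 (totals of all tags) and 0.162 (no tags that begin with T) for *Erbb4*, and to 0.143 (TMM), 0.036 (DESeq2 size factors), 0.275 (totals of all tags) and 0.075 (no T tags) for *Errfi1*. In the OFT against the AVC *Errfi1* changed sign to 0.025 (TMM), 0.058 (DESeq2 size factors), 0.285 (totals of all tags) and 0.009 (thinned libraries). In the ventricles against the atria *Egfr* changed sign to -0.518 (no T tags), and *Erbb2* to -0.181 (TMM), -0.203 (DESeq2 size factors), -0.039 (totals of all tags), -0.176 (last site only) and -0.052 (no T tags). None of these ratios was called. Called members against the chambers went from 6 to 3 in the AVC with dispersion 0.4 and to 4 with TMM or DESeq2 size factors. They went to 5 with 5 tags for each missing type and to 7 with dispersion 0.05. In the OFT they went from 4 to 3 with dispersion 0.4, at least 50 tags a gene, the ventricles alone or adjusted p. Totals of all tags, more than 10 tags a type or thinned libraries gave 5 there, and dispersion 0.05 gave 6. In the null comparison they went from 2 to 1 with dispersion 0.4, which lost *Nrg1* (exact p = 0.0971), and from 2 to 1 with at least 50 tags a gene, no T tags, thinned libraries or 5 tags for each missing type, each of which left *Egfr* without a value or a call. In the OFT against the AVC the count went from 1 to 2 with dispersion 0.05, and to 0 with at least 50 tags a gene, more than 10 tags a type, thinned libraries, 5 tags for each missing type or adjusted p. With the last site only, *Erbb2* was called lower in the OFT than in the AVC (log2 ratio -2.19, exact p = 0.0083). In the ventricles against the atria it went from 0 to 2 with more than 10 tags a type and to 1 with the last site only. *Nrg1* and *Erbb3* were called higher than the chambers in both cushion regions under each alternative that gave a value, 16 for *Nrg1* and at least 15 for *Erbb3*, and the *Nrg1* difference in the null held in 13 of 14. *Erbb2* and *Erbb4* lost their AVC calls with TMM, with DESeq2 size factors and with dispersion 0.4. *Hbegf* lost its AVC call with dispersion 0.4 (exact p = 0.0592), and *Erbb4* lost its OFT call under 5 of 16 alternatives. Depth limits the values of *Egfr*, whose tags never exceeded 41 in a library.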
